A study of Arabidopsis thaliana with 9 samples.

Results

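The wild-type siliques of the series were described here through 2 mRNA libraries, out of 6 mRNA libraries and 9 libraries of all kinds. A silique is the fruit of Arabidopsis thaliana: a wall derived from the carpels that encloses the developing seeds. The siliques came from wild-type plants of the ecotype Columbia-0, with no treatment given in the labels, and were harvested between 1 and 5 days after pollination, as labelled. The libraries were chosen by their titles alone, as the columns of wild type replicates 1 and 2, and the series design text calls them biological samples. The labels do not say how many siliques or plants went into each library, and they give this range of days and no single day for a library, so no time course could be read. The other mRNA libraries, from ago3-3 mutants, were not compared here.

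After pollination a double fertilisation starts 2 products inside each ovule, the embryo and the endosperm, a nourishing tissue that first divides as nuclei without walls. The integuments around them, which belong to the mother plant, become the seed coat, where flavonoids and later mucilage are laid down. The fruit wall is green and photosynthetic, and it sets aside lignified cells along the margins at which the fruit later opens. An RNA extract of whole siliques mixes all of these, so that fewer cells of a type and less RNA per cell cannot be told apart.

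Levels are given as CPM, the deposited count of a gene divided by the total of its library and multiplied by 1000000, and a pair of values is for replicates 1 and 2, in that order. Levels of different genes are compared as CPM per kilobase (kb) of the span of the gene, introns included, which understates genes with long introns. Rankings by CPM, named as such, order genes by their share of the counts and favour long genes. The libraries held 36258980 counts in replicate 1 and 30338416 in replicate 2. The 2 libraries differed in makeup. Rows for structural RNA, those with Ensembl identifiers of predicted non-coding RNA, took 3.04% of counts in replicate 1 and 8.13% in replicate 2, and protein-coding genes took 95.0% and 87.5%. Protein-coding genes had slightly higher CPM in replicate 1 on the whole, with a median log2 ratio of replicate 1 over replicate 2 of 0.15 over 19256 genes at a mean of 1 CPM or more. All rows of the chloroplast and mitochondrial genomes held 0 counts, so the photosynthesis genes below are those of the nucleus.

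Most protein-coding genes were detected. Of 27439 genes, 18776 (68.4%) had 1 CPM or more in both libraries, 12294 (44.8%) had 10 CPM or more and 1611 (5.87%) had 100 CPM or more. No read was counted in either library for 3253 genes. A count of 0 allows a level of up to 3 counts, which is 0.0827 CPM in replicate 1 and 0.0989 CPM in replicate 2. Counts were spread over many genes: 1478 genes made up the upper 50% of protein-coding counts, and the 20 highest made up 6.41% and 6.03%.

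Photosynthesis genes made up 7 of the 20 most abundant protein-coding transcripts by CPM. RBCS1A (AT1G67090), a gene for the small subunit of the carbon-fixing enzyme Rubisco, stood at 9773 and 7356 CPM in replicates 1 and 2 and was highest both by CPM and per kb. GILT (AT4G12960), named for its likeness to a lysosomal thiol reductase, stood at 4901 and 4813 CPM. CAB1 (AT1G29930, LHCB1.3), a chlorophyll-binding protein of the light-harvesting antenna, stood at 4952 and 4424 CPM. By CPM per kb these 3 were followed by the antenna gene LHB1B2 (LHCB1.5) and the lipid transfer protein gene LTP6. The means per kb were 5672 for RBCS1A, 3811 for CAB1, 3193 for GILT, 2648 for LHB1B2 and 2028 for LTP6. LTP6 varied most between the libraries among these 5, at 2155 and 1172 CPM, and GILT least.

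**Figure D1:**
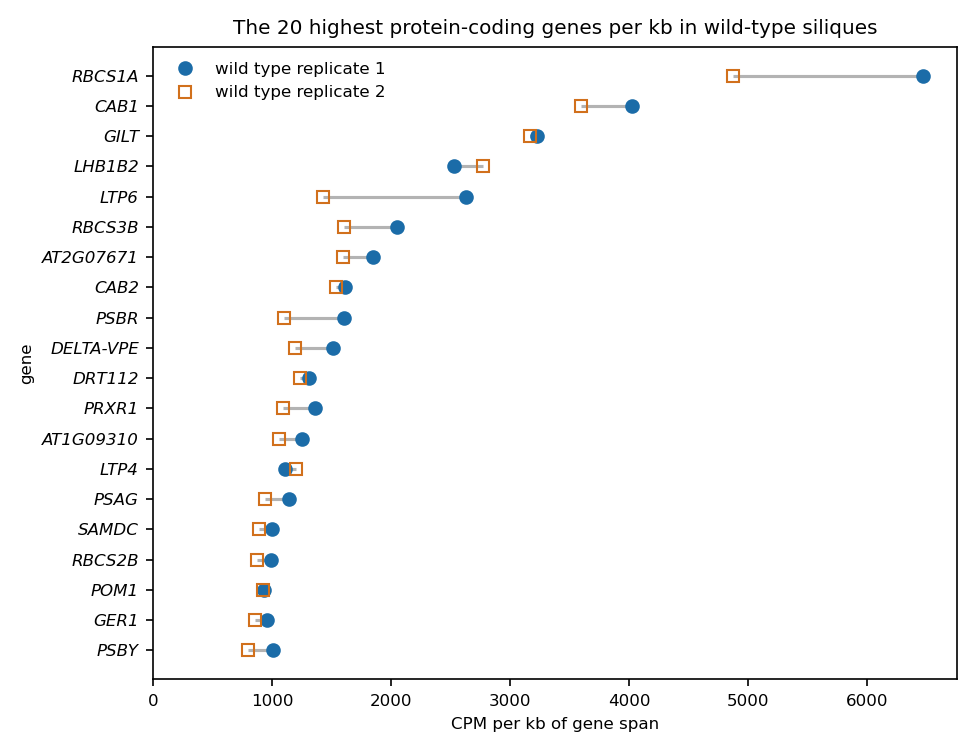
CPM per kb of gene span (horizontal axis) of the 20 protein-coding genes with the highest mean per kb (vertical axis), with replicate 1 as filled circles and replicate 2 as open squares. RBCS1A lies to the right of all others in both libraries, and 10 of the 20 are photosynthesis genes of the lists used here.

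DELTA-VPE (AT3G20210), a vacuolar protease needed for the programmed death of inner seed coat cells, stood at 3628 and 2843 CPM and came next after RBCS1A, GILT and CAB1 by mean CPM. Of the other genes among the 20 highest by CPM, PRXR1, a peroxidase, stood at 3445 and 2754 CPM, and SAMDC, which makes the decarboxylated S-adenosylmethionine used for polyamines, at 2663 and 2379 CPM. ATMS1, a methionine synthase, stood at 1957 and 1635 CPM. POM1, a chitinase-like protein needed for orderly cellulose, was among the steadiest at 2176 and 2149 CPM, and CAT3, a catalase, stood at 1882 and 1962 CPM. CER1, which makes the alkanes of surface wax, stood at 2025 and 1608 CPM. TGG2, a myrosinase that releases mustard oils from glucosinolates, stood at 2024 and 1352 CPM, and BAM5, a beta-amylase, at 2102 and 1714 CPM. AT1G56100, which carries no symbol in the gene table, stood at 2877 and 2037 CPM. Several of these genes overlap another gene, among them CAB1, LHB1B2, DELTA-VPE and AT1G56100, and their levels can hold reads of that gene.

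Length changed the ranking. Of the 20 highest genes by CPM, 12 were also among the 20 highest per kb, and 10 of the 20 highest per kb were photosynthesis genes. Short genes that entered per kb were PSBR, PSBY and PSAG of the photosystems, RBCS2B, the lipid transfer protein gene LTP4, the germin-like gene GER1, and AT2G07671 and AT1G09310, which have no symbol. AT2G07671 overlaps no other gene, yet its counts were not whole. Whether its level holds reads of copies elsewhere, those of the organelle genomes included, cannot be told. LTP4 had a mean of 1149.9 CPM per kb and GER1 one of 905. At a mean of 20 CPM or more, 5 protein-coding rows had counts that matched a structural RNA row within 1% in both libraries. They were left out of every ranking and every count of genes. The highest was RR3 (AT2G41310), a response regulator of cytokinin signalling, with 5492 CPM in replicate 1 and 18830.2 CPM in replicate 2, beside 5478 and 18818 CPM for the structural RNA row. Without the matching counts RR3 would stand at 13.9 and 11.9 CPM. The row of AT2G31141, at 1169 and 3729 CPM, matched its structural RNA row exactly. The protein-coding shares of counts given above, 95.0% and 87.5%, still include these 5 rows. Without them the shares were 94.3% in replicate 1 and 85.1% in replicate 2.

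Nuclear photosynthesis genes were at the top of the lists examined. All 68 members of the 3 photosynthesis lists had 10 CPM or more in both libraries and 63 had 100 CPM or more (92.6%), against 5.87% of all protein-coding genes. Together they held 7.60% of protein-coding counts in replicate 1 and 7.30% in replicate 2. Their median level was 441 CPM per kb, against 3.72 over all protein-coding genes. By median per kb the antenna genes (609) stood above the genes of Rubisco and the Calvin cycle (392) and those of the photosystems and electron transport (381).

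The Rubisco small subunit was drawn mostly from 1 of its 4 genes. Per kb, RBCS1A held 64.0% of the family in replicate 1 and 63.4% in replicate 2, RBCS3B 20.3% and 20.8%, RBCS2B 9.77% and 11.4%, and RBCS1B 5.93% and 4.42%. RBCS3B stood at 3395 and 2650.0 CPM. RBCS1B stood at 1291 and 732 CPM and was the least steady of the 4. Among the 5 LHCB1 genes of the main antenna, LHCB1.3 held 44.6% and 40.9% per kb, LHCB1.5 28.0% and 31.5%, LHCB1.1 17.8% and 17.5%, LHCB1.2 8.07% and 8.17%, and LHCB1.4 1.55% and 1.88%. The genes within each of these families are close copies, so how the authors' counting divided shared reads bears on these shares. The order of the members was the same in both libraries.

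Enzymes and complexes around Rubisco were high as well. RCA, which keeps Rubisco active, stood at 1718 and 1435 CPM, CA1, a carbonic anhydrase, at 2339 and 1877 CPM, and GAPA1, a subunit of the Calvin cycle glyceraldehyde-3-phosphate dehydrogenase, at 1300.3 and 1235 CPM. The smallest shares of counts in this list were those of CP12-2, a regulator of the cycle, at 164 and 168 CPM, and RPE, a pentose-phosphate epimerase, at 226 and 215 CPM. Per kb the order differed, since the short CP12-2 had a mean of 261, above RPE (84.4) and the triose-phosphate isomerase gene TIM (63.4). Plastocyanin came mainly from PETE2, listed as DRT112, at 1764 and 1663 CPM, a mean of 1272 per kb, rather than from PETE1, at 105 and 96.7 CPM and 96.0 per kb. PSBR, a small subunit of photosystem II, stood at 1698 and 1163 CPM, and PSAL, a subunit of photosystem I, at 1229 and 992 CPM. PSBO1, which stabilises the water-splitting cluster of photosystem II, stood at 1515 and 1532 CPM and its copy PSBO2 at 447 and 438 CPM. For both proteins 1 copy thus held most of the transcripts in both libraries. PSAE2, the minor gene of a photosystem I subunit, was lowest of its list by CPM, at 92.3 and 105 CPM. Antenna genes of photosystem I were close between the libraries: LHCA3 stood at 1376 and 1466 CPM, LHCA4 at 1362 and 1375 CPM and LHCA1 at 1365 and 1256 CPM. LHCB4.1, of a photosystem II antenna, was less steady, at 1553 and 877 CPM. The lowest antenna genes by CPM were LHCA6, at 64.8 and 71.8 CPM, and LHCA5, at 42.6 and 38.0 CPM, both minor antenna proteins of photosystem I.

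Of the 13 genes of photorespiration and chlorophyll synthesis, 12 had 100 CPM or more in both libraries. This was 92.3%, against 5.87% of all protein-coding genes. GUN5, a subunit of the enzyme that puts magnesium into chlorophyll, stood at 1796 and 1483 CPM and a mean of 320.1 per kb, the highest of the list. GLDP1, of the photorespiratory glycine decarboxylase, stood at 1058 and 947 CPM, SHM1, the serine hydroxymethyltransferase that follows it, at 639 and 573 CPM, and AGT1, an aminotransferase of the peroxisome, at 578 and 476 CPM. The lowest by CPM were GDCH, another subunit of glycine decarboxylase, at 114 and 107 CPM, and CAO, which makes chlorophyll b, at 84.9 and 76.2 CPM.

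**Figure D2:**
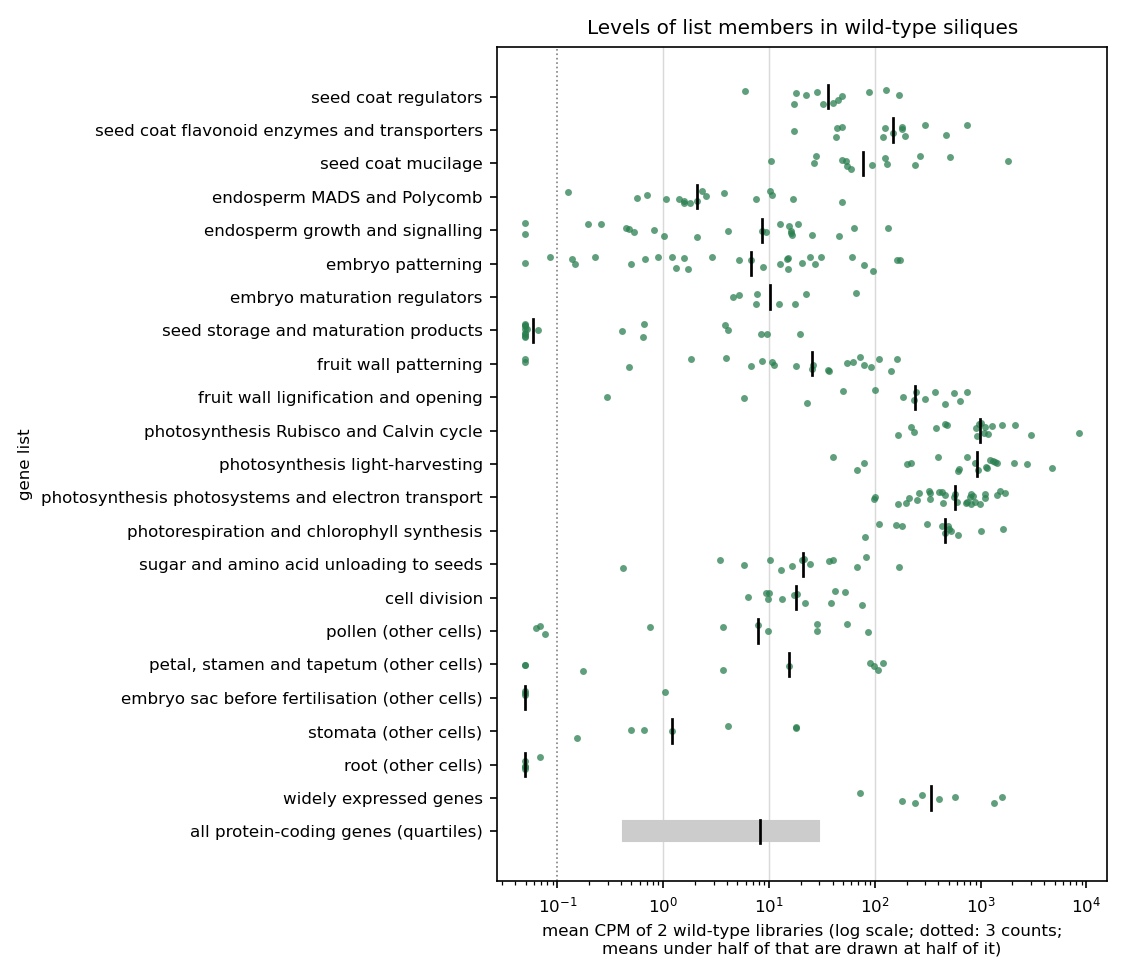
Mean CPM over the 2 wild-type libraries (horizontal axis, logarithmic) of each member of the 22 gene lists (1 point per gene, vertical axis by list), with black bars for list medians and a grey bar for the quartiles of all protein-coding genes. Photosynthesis members lie mostly above 100 CPM, whereas 14 of 18 seed storage and maturation members are under 1 CPM in at least 1 library.

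Genes of the seed coat lists were detected throughout, from regulators to the enzymes of pigment and mucilage. RNA of whole siliques does not show how much of their level came from the seed coat. All 12 regulators had 1 CPM or more in both libraries and 11 had 10 CPM or more, against 44.8% of all protein-coding genes. GL2 (AT1G79840), a homeodomain factor of the mucilage-forming epidermis, stood at 129 and 209 CPM. STK, a MADS factor of ovule and seed coat identity, stood at 146 and 111 CPM, and MYB61, a MYB factor of mucilage deposition, at 79.4 and 98.1 CPM. AP2, which shapes the outer epidermis, stood at 53.8 and 43.5 CPM. Per kb the order was MYB61 (48.9), GL2 (37.6), STK (26.2), and then TT2 (18.3), the MYB factor that switches on the tannin pathway. Per kb MYB61 stood above GL2 in each library, although their ranges over the 2 libraries overlapped. STK stood above GL2 in replicate 1, at 29.7 against 28.7 per kb. In replicate 2 it stood below, at 22.7 against 46.5, so the order of GL2 and STK is not firm. TT16, a MADS factor of the inner seed coat, stood at 20.7 and 13.6 CPM, and TT1, a zinc finger factor, at 6.32 and 5.50 CPM, the lowest of the list.

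Transcripts of the pathway from chalcone to the brown tannins of the seed coat were present at every step listed. They cannot be assigned to the seed coat alone. All 13 genes had 10 CPM or more in both libraries, against 44.8% of all protein-coding genes. At 100 CPM or more there were 8 (61.5%, against 5.87%), and the list summed to 2716 and 2517 CPM. CHS (AT5G13930), the entry enzyme chalcone synthase, stood at 789 and 711 CPM and a mean of 419 per kb. Next per kb came TT7, the flavonoid 3'-hydroxylase, at 504 and 429.5 CPM (166 per kb), and DFR, dihydroflavonol reductase, at 341 and 259.6 CPM (155 per kb). LDOX, the next enzyme, stood at 195 and 164 CPM (121 per kb), and BAN, which commits the pathway to tannins, at 169 and 131 CPM (81.6 per kb). FLS1, which leads to flavonols instead, stood at 135 and 114 CPM. By mean, both by CPM and per kb, the lowest genes were TT12 and AHA10, of transport into the vacuole. AHA10, a proton pump, stood at 55.2 and 30.0 CPM, and TT12, the tannin precursor transporter, at 23.0 and 11.7 CPM. AHA10 was close to TT15, another member, at 47.7 and 39.7 CPM, and stood above it in replicate 1.

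TT10 (AT5G48100), the laccase that oxidises tannins and browns the coat late in its development, was the exception among these enzymes. It stood at 65.4 CPM in replicate 1 and 324 CPM in replicate 2, a 4.95-fold difference. It was the only member past 2-fold, a difference reached in that direction by 1.74% of protein-coding genes at a mean of 1 CPM or more. The other 12 members were higher in replicate 1 by library totals and by TMM, a scaling that removes the overall shift between the libraries. Over all 27439 protein-coding genes, 16699 were higher in replicate 1 by library totals and 12576 by TMM.

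Mucilage genes were present as well, and they held the widest gaps between the libraries among the seed coat genes. The 14 members summed to 3004 and 3936 CPM, and 11 of them were higher in replicate 2 by library totals and by TMM. Over all 27439 protein-coding genes, 7487 were higher in replicate 2 by library totals and 11610 by TMM. SBT1.7 (AT5G67360, listed as ARA12), a subtilase that acts on mucilage release and is also expressed elsewhere in the plant, stood at 1665 and 1969 CPM and was the highest per kb at 614. BXL1, a xylosidase and arabinofuranosidase of the cell wall, stood at 391 and 644 CPM (103 per kb), and CESA5, a cellulose synthase, at 233 and 243 CPM. MUM4, which makes the rhamnose of mucilage pectin, stood at 139 CPM in replicate 1 and 395 CPM in replicate 2. PER36, a peroxidase that loosens the outer wall of mucilage cells, stood at 3.64 CPM and 115 CPM in the same order, and PMEI6, an inhibitor of pectin methylesterases, at 2.12 CPM and 18.8 CPM. These 3 of 14 were past 2-fold and higher in replicate 2, as were 1.74% of protein-coding genes at a mean of 1 CPM or more. GAUT11, a pectin synthase, stood at 52.3 and 53.5 CPM in the 2 libraries, and SOS5, an arabinogalactan protein, stood at 29.4 and 23.4 CPM.

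**Figure D3:**
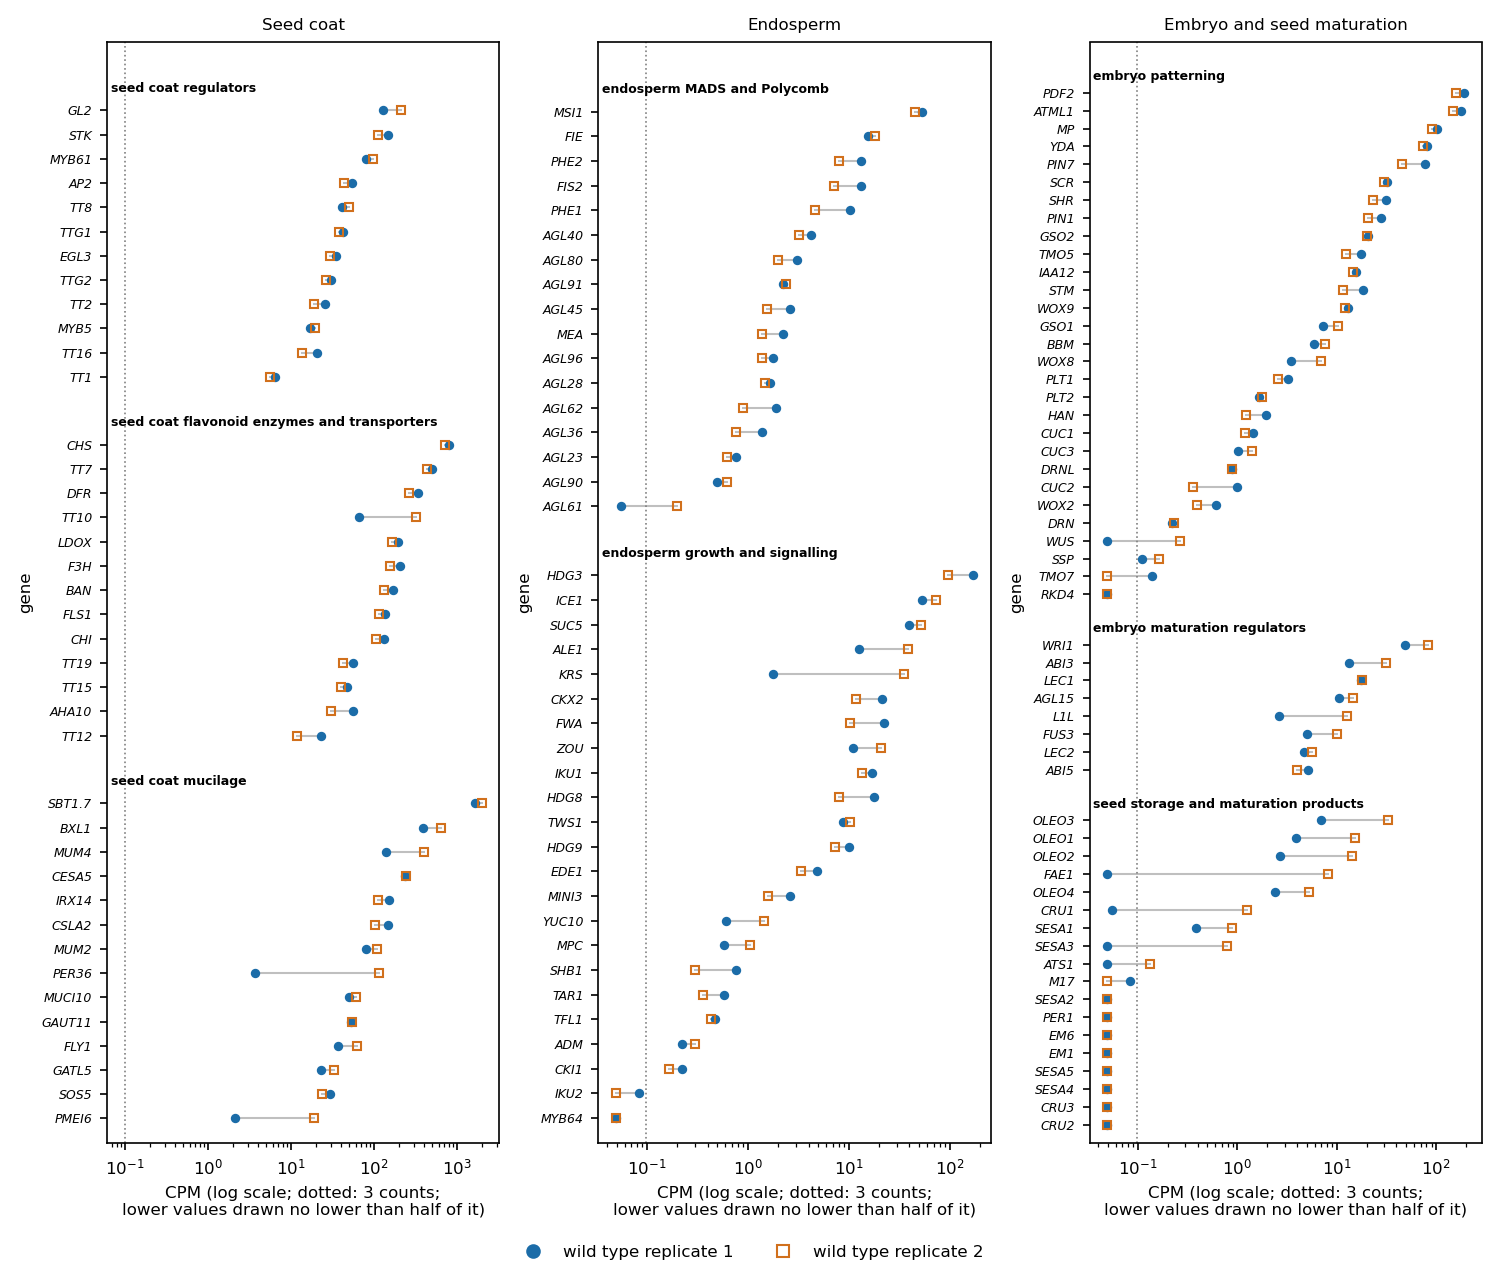
CPM (horizontal axes, logarithmic) of every seed coat, endosperm, embryo and seed maturation gene examined (vertical axes), with replicate 1 as filled circles and replicate 2 as open squares. FAE1, TT10, PER36, PMEI6, KRS and the oleosin genes are among those with wide gaps and replicate 2 to the right. Most other pairs lie close together.

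The MADS and Polycomb genes of the endosperm were much lower in these whole-fruit libraries, with a median of 2.07 CPM per kb against 14.1 for the seed coat regulators. Of the 17 MADS and Polycomb genes, 12 had 1 CPM or more in both libraries (70.6%, against 68.4% of all protein-coding genes) and 2 had 10 CPM or more (11.8%, against 44.8%). Those 2 were the Polycomb subunits MSI1, at 53.0 and 45.5 CPM, and FIE, at 15.5 and 18.4 CPM, which act in many other tissues too. FIS2, a Polycomb subunit of the central cell and endosperm, stood at 13.4 and 7.09 CPM and MEA, its histone methyltransferase partner, at 2.23 and 1.38 CPM. Among the MADS genes of the endosperm, PHE2 stood at 13.4 and 7.94 CPM and PHE1 at 10.4 and 4.68 CPM. They are near-identical neighbours, so their reads may have been shared. AGL62, which keeps the early endosperm from forming walls too soon, stood at 1.90 and 0.890 CPM and AGL80, a central cell factor, at 3.06 and 1.98 CPM. AGL90, at 0.496 and 0.626 CPM, and AGL61, at 0.0552 and 0.198 CPM, were the lowest by CPM. Of the 17, 13 were higher in replicate 1 by library totals and by TMM. By library totals most protein-coding genes shared this direction: 16699 were higher in replicate 1 and 7487 in replicate 2. By TMM these were 12576 and 11610. PHE1 and AGL62 were past 2-fold and higher in replicate 1, as were 2.37% of protein-coding genes at a mean of 1 CPM or more. With TMM scaling AGL62 was no longer past 2-fold.

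The second endosperm list, of growth and signalling genes, spanned a wider range, and 14 of its 23 members had 1 CPM or more in both libraries (60.9%, against 68.4% of all protein-coding genes). HDG3 (AT2G32370), a homeodomain gene whose paternal copy is the one expressed in endosperm, stood at 170.1 and 96.8 CPM. ICE1, a bHLH factor of endosperm breakdown and of stomata, stood at 53.8 and 73.3 CPM, and its endosperm partner ZOU at 11.1 and 21.1 CPM. SUC5, a sucrose transporter of the endosperm, stood at 39.8 and 52.2 CPM, and CKX2, a cytokinin oxidase of the pathway that sets seed size, at 21.2 and 11.7 CPM. The seed size genes IKU1 and MINI3 stood at 17.2 and 13.5 CPM and 2.59 and 1.58 CPM. IKU2, a receptor kinase of the same pathway, held 3 counts in replicate 1 and 0 in replicate 2, and MYB64, a factor of the female gametophyte, held none.

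Of the 15 members at a mean of 1 CPM or more, 2 were past 2-fold and higher in replicate 1 (2.37% over all protein-coding genes at that mean) and 3 were past 2-fold and higher in replicate 2 (1.74%). FWA, an imprinted homeodomain gene, stood at 22.1 CPM in replicate 1 and 10.4 CPM in replicate 2, and HDG8, another imprinted homeodomain gene, at 17.7 and 7.98 CPM. Both were higher in replicate 1. KRS, which encodes a small secreted protein of the endosperm that helps to form the sheath around the embryo, stood at 1.77 CPM in replicate 1 and 35.7 CPM in replicate 2. ALE1, a subtilase of the endosperm needed for the cuticle of the embryo, stood at 12.6 and 38.5 CPM in the same order, and the auxin biosynthesis gene YUC10 at 0.607 and 1.45 CPM. These 3 were higher in replicate 2. With TMM scaling FWA was no longer past 2-fold and ZOU was, higher in replicate 2. TWS1, the peptide precursor that signals between embryo and endosperm about the cuticle, stood at 8.72 and 10.2 CPM in replicates 1 and 2.

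Embryo patterning genes were present mostly at low levels, with a median of 2.03 CPM per kb. Of 29 members, 21 had 1 CPM or more in both libraries (72.4%, against 68.4% of all protein-coding genes). At 100 CPM or more there were 2 (6.90%, against 5.87%). The highest by CPM included factors that also act outside the embryo: PDF2 and ATML1, homeodomain factors of the epidermis, stood at 192 and 158 CPM and 178 and 147 CPM, the auxin response factor MP at 101 and 90.2 CPM, and the kinase YDA, which acts in the first divisions of the embryo, at 81.8 and 74.7 CPM. By mean per kb, PDF2 (28.9) and ATML1 (28.3) lay closer together than either did between the libraries. The zygote and suspensor factor WOX9 stood at 13.1 and 12.2 CPM. Its relative WOX8, at 3.45 CPM in replicate 1 and 7.02 CPM in replicate 2, was the only member past 2-fold at a mean of 1 CPM or more. WOX2, of the apical cell lineage, stood at 0.607 and 0.396 CPM. TMO7, a small factor under the control of MP, held 5 and 1 counts in replicates 1 and 2, and RKD4, an early embryo factor, held none.

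Maturation regulators were all detected, while most storage and maturation products were at or near 0. All 8 regulators had 1 CPM or more in both libraries, against 68.4% of all protein-coding genes. WRI1, which directs sugar into oil synthesis, stood at 48.9 and 82.9 CPM. LEC1, a factor of embryo identity, was close in both libraries, at 17.6 and 17.8 CPM, and AGL15, a MADS factor of the embryo, stood at 10.6 and 14.5 CPM. The lowest were LEC2, a partner of LEC1 in embryo identity, at 4.72 and 5.60 CPM, and ABI5, of abscisic acid signalling, at 5.18 and 3.96 CPM. The maturation factors ABI3, at 13.4 CPM in replicate 1 and 31.2 CPM in replicate 2, FUS3, at 5.02 and 10.1 CPM, and L1L, at 2.62 and 12.8 CPM, were past 2-fold and higher in replicate 2, 3 of 8 regulators against 1.74% of all protein-coding genes at a mean of 1 CPM or more. Over all 27439 protein-coding genes 3253 had no count in either library. Of 18 storage and maturation products, 4 had 1 CPM or more in both libraries (22.2%, against the same 68.4%) and 7 had no count in either. The 4 were oleosin genes, which coat oil bodies: OLEO3 stood at 6.95 and 32.5 CPM, OLEO1 at 3.94 and 15.3 CPM, OLEO2 at 2.70 and 14.3 CPM and OLEO4 at 2.40 and 5.24 CPM. FAE1, the elongase of seed oil fatty acids, held 1 count in replicate 1 and 249 in replicate 2. The globulin gene CRU1 held 2 and 38 counts, and the albumin gene SESA1 14 and 27. The genes with no count were the globulin genes CRU2 and CRU3, the albumin genes SESA4 and SESA5, the late embryogenesis genes EM1 and EM6, and the peroxiredoxin gene PER1. The 5 products at a mean of 1 CPM or more, the 4 oleosins and FAE1, were all past 2-fold and higher in replicate 2, against the same 1.74%.

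The patterning genes of the fruit wall had a median of 7.36 CPM per kb and its lignification and opening genes one of 78.9. Of 22 patterning genes, 19 had 1 CPM or more in both libraries (86.4%, against 68.4% of all protein-coding genes). At 10 CPM or more there were 14 (63.6%, against 44.8%). The MADS factors that lay out the opening zone were SHP2 (AT2G42830), at 156 and 167 CPM, and its partner SHP1, at 85.8 and 72.5 CPM. ALC, a bHLH factor of the separation layer, stood at 78.0 and 67.8 CPM, and IND, the bHLH factor of the valve margin, at 9.60 and 11.7 CPM. FUL, the MADS factor that keeps margin identity out of the valves, stood at 103 and 81.4 CPM, and RPL, which does so for the replum, at 61.2 and 48.4 CPM. Per kb, ALC (55.0) and SHP2 (41.5) were highest, ahead of ARF6 (27.7), FUL (24.0) and ARF8 (21.8). ARF6 and ARF8, auxin response factors of fruit growth, stood at 160.5 and 126 CPM and 120.1 and 97.7 CPM. SHP2 differed less between the libraries than from SHP1, and none of the list was past 2-fold at a mean of 1 CPM or more. HEC1 and CRC, factors of the young gynoecium, were lowest: HEC1 held 2 counts in replicate 1 and 0 in replicate 2, and CRC 0 and 1.

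Genes of lignin and secondary walls were among the highest of the fruit lists. Of 14, 9 had 100 CPM or more in both libraries (64.3%, against 5.87% of all protein-coding genes). CESA4 (AT5G44030), CESA7 and CESA8, which together make the cellulose of secondary walls, kept similar proportions in both libraries. CESA4 had 831 and 658 CPM, CESA7 had 534 and 391 CPM and CESA8 had 342 and 257 CPM. Per kb, CESA4 held 45.1% of the 3 in replicate 1 and 46.8% in replicate 2, CESA7 31.7% and 30.4%, and CESA8 23.2% and 22.8%. PAL1, the entry enzyme of the phenylpropanoid pathway, stood at 683 and 584 CPM and C4H, the next enzyme, at 409 and 338 CPM. LAC4, a laccase that polymerises lignin, stood at 619.6 and 504 CPM and LAC17, another, at 254 and 212 CPM. Per kb, PAL1 (187) was followed by LAC4 (166), C4H (156) and CESA4 (139.6). The switch genes of fruit lignification were lower: NST1 stood at 55.1 and 45.9 CPM and NST3 at 22.3 and 23.3 CPM. The polygalacturonases that separate cells at opening were lowest, ADPG1 at 5.16 and 6.56 CPM and ADPG2 at 0.331 and 0.264 CPM. These genes also act in the vascular strands of the fruit and its stalk, so their levels are not those of the opening zone alone.

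**Figure D4:**
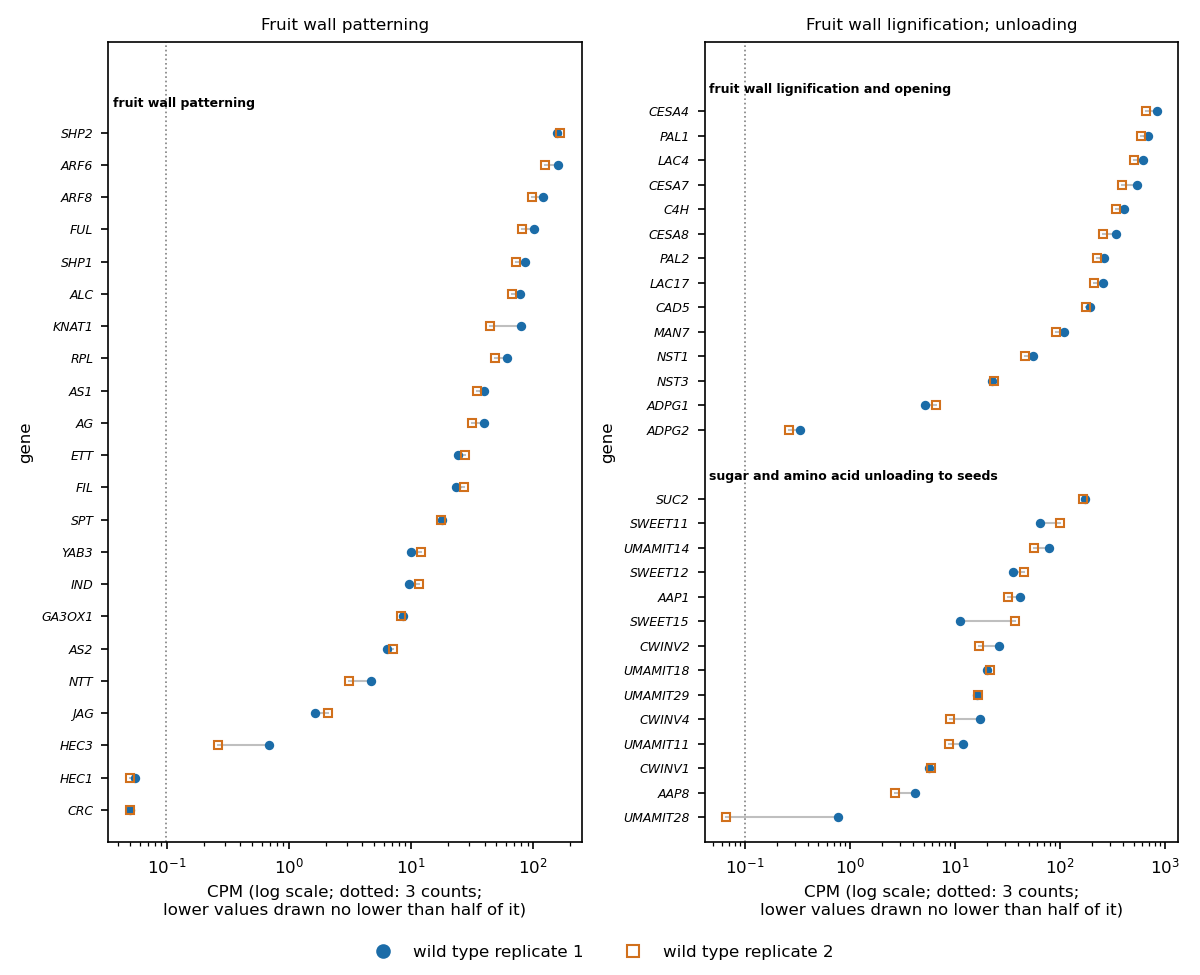
CPM (horizontal axes, logarithmic) of fruit wall and nutrient unloading genes (vertical axes), with replicate 1 as filled circles and replicate 2 as open squares. CESA, PAL and LAC genes lie above 100 CPM, ADPG2 lies below 1 CPM, and SWEET15 shows the widest gap among the unloading genes above 1 CPM.

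Genes that carry sugar and amino acids towards the seeds were present in 13 of 14 cases. At 1 CPM or more in both libraries this was 92.9%, against 68.4% of all protein-coding genes. SUC2, the sucrose loader of the phloem, stood at 174 and 164 CPM. The sucrose exporters SWEET11 and SWEET12 stood at 63.6 and 101 CPM and 35.9 and 45.0 CPM. SWEET15, which acts with them in the seed coat and endosperm, stood at 11.2 CPM in replicate 1 and 37.4 CPM in replicate 2 and was past 2-fold. UMAMIT14, an amino acid exporter, stood at 77.7 and 56.6 CPM and AAP1, an importer of the embryo, at 41.7 and 31.7 CPM. UMAMIT28, an exporter, stood at 0.772 and 0.0659 CPM, and AAP8, an importer, at 4.14 and 2.70 CPM.

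Markers of other tissues were set beside these levels. Of 11 pollen genes, 7 had 1 CPM or more in both libraries (63.6%, against 68.4% of all protein-coding genes). The 11 summed to 255 and 185 CPM. The neighbouring pectin methylesterase genes VGD1 and VGDH1, which are close copies, stood at 104 and 68.7 CPM and 61.9 and 47.0 CPM. The arabinogalactan protein genes AGP11 and AGP6 stood at 27.3 and 29.5 CPM and 32.8 and 23.5 CPM. PPME1, another pectin methylesterase, stood at 13.3 CPM in replicate 1 and 6.39 CPM in replicate 2, past 2-fold by library totals and not by TMM. The water channel genes TIP1;3 and TIP5;1 and the sperm cell histone gene HTR10 were all under 0.15 CPM in both libraries. Of the petal, stamen and tapetum list, the tapetum genes MS1 and A9 held no count and the factor AMS stood at 0.0552 and 0.297 CPM. AP3 stood at 85.2 and 94.9 CPM and its partner PI, with which it specifies petals and stamens, at 3.83 and 3.46 CPM. The co-factors SEP1, SEP2 and SEP3, which also act in carpels and ovules, stood at 99.9 and 98.0 CPM, 119 and 117 CPM and 110.0 and 106 CPM. The egg cell gene EC1.1 and the synergid factor MYB98 held no count and EC1.2 stood at 0 and 0.0989 CPM. LURE1.2, a pollen tube attractant of the synergids, stood at 1.41 CPM in replicate 1 and 0.659 CPM in replicate 2, past 2-fold by library totals and not by TMM. Of 5 root genes 4 held no count and RHD6 stood at 0.138 and 0 CPM. Beside the label of silique tissue, fruit wall, seed coat and photosynthesis genes were thus present and root genes nearly absent. AP3 and 7 of the 11 pollen genes were present as well, and the cells they came from were not tested.

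Genes expressed in most tissues served as a yardstick. The 8 widely expressed genes summed to 4687 and 4675 CPM. The elongation factor gene EF1A (AT5G60390) stood at 1586 and 1606 CPM, the polyubiquitin gene UBQ10 at 1373 and 1307 CPM, and the glyceraldehyde-3-phosphate dehydrogenase genes GAPC2 and GAPC1 at 555 and 587 CPM and 384 and 423 CPM. EF1A has near-identical copies, so its level may hold or lack reads of those. The actin gene ACT8 stood at 182 and 182 CPM and PP2AA3, a phosphatase subunit, at 77.3 and 67.0 CPM. Per kb, RBCS1A (5672) stood well above EF1A (658), and CESA4 (139.6) stood above ACT7 (105).

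The 2 libraries were close for most genes and far apart for some. Over the 19256 protein-coding genes at a mean of 1 CPM or more, log2(CPM + 0.5) correlated between the libraries with a Pearson r of 0.975 and CPM with a Spearman rho of 0.978, as a description across genes. A difference of 2-fold or more was found for 457 genes that were higher in replicate 1 (2.37%) and 336 that were higher in replicate 2 (1.74%). With TMM scaling these were 279 and 444, so that the share higher in replicate 1 was 57.6% by library totals and 38.6% by TMM. With 1 library on each side, no test of these differences was possible. In the lists, 5 of 5 seed storage products, 3 of 8 maturation regulators and 3 of 14 mucilage genes at that mean were past 2-fold and higher in replicate 2, with the same counts by library totals, TMM and protein-coding totals. None of the 68 photosynthesis genes and none of the fruit wall genes were. Of the list genes past 2-fold, MUM4, FWA, L1L, OLEO1 and OLEO2 overlap another gene, whose reads cannot be told apart from theirs. Photosynthesis genes were higher in replicate 1 in 56 of 68 cases by library totals and in 29 of 68 by TMM, so their direction depended on the scaling. Over all 27439 protein-coding genes, 16699 were higher in replicate 1 by library totals and 12576 by TMM.

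The widest gaps were those of genes higher in replicate 2. Among 9168 genes at a mean of 20 CPM or more, the widest gap was that of AT1G62060, at 0.855 CPM in replicate 1 and 258 CPM in replicate 2. AT1G62080 followed, at 0.276 and 40.6 CPM, then FLA5, a fasciclin-like arabinogalactan protein, at 0.607 and 58.7 CPM. The dirigent protein gene DP1 (AT4G11180) stood at 2.29 and 198 CPM, and PER36, named above, came next. JMT, which makes methyl jasmonate, stood at 11.7 and 245 CPM, ATPMEPCRD at 21.7 and 321 CPM, and DOX1, an alpha-dioxygenase, at 4.69 and 49.1 CPM. AT5G15180 and AT1G09550 completed the first 10, with 22.5-fold and 17.3-fold differences. In the other direction the gaps were smaller: AT5G42530 stood at 55.4 CPM in replicate 1 and 6.36 CPM in replicate 2, AT2G25510 at 56.2 and 11.7 CPM, and AT4G21630 at 245 and 100.02 CPM. The next 7 were the lipase gene LTL1, the potassium channel gene KAT2, AT3G28830, AT5G58840, AT3G28810, the glycosyl hydrolase gene GH9B9 and AT1G61095, and they lay between 2.19-fold and 2.27-fold. Beside these gaps, replicate 2 had the larger share of structural RNA given above, and pollen genes summed to 255 and 185 CPM and stomatal genes to 50.7 and 34.6 CPM in replicates 1 and 2. Both libraries carry the same label of 1 to 5 days after pollination, and the mix of days within each is not given. The part of any of these in the differences was not tested.

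**Figure D5:**
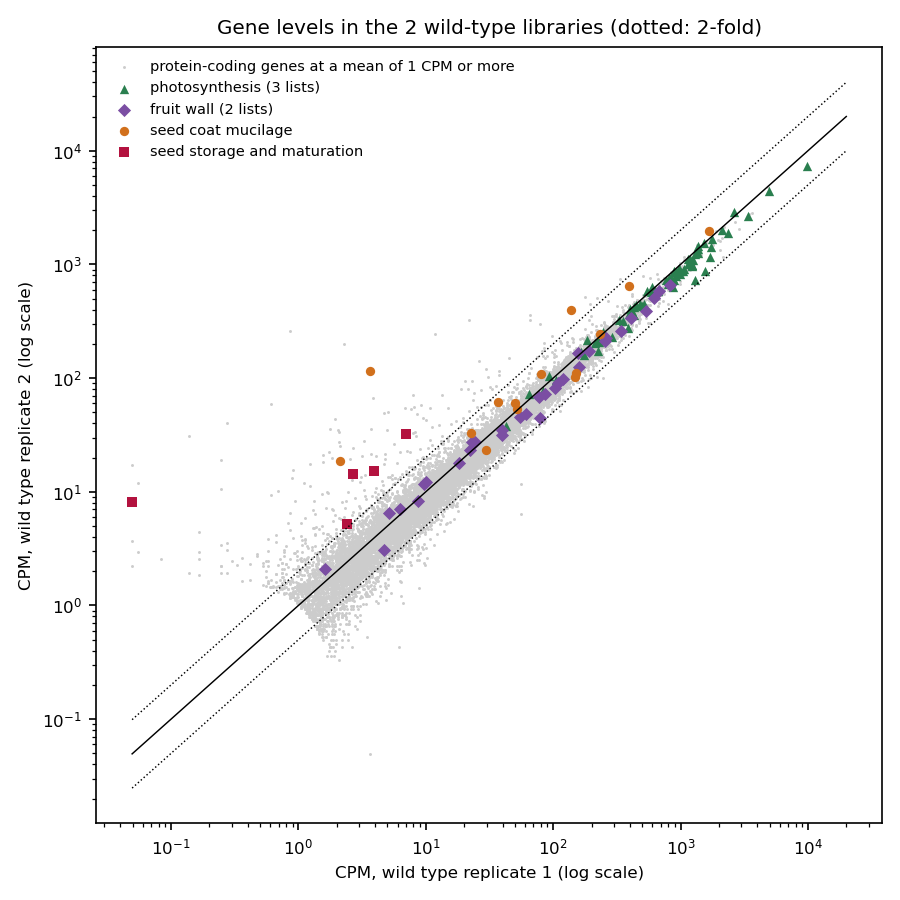
CPM in wild type replicate 1 (horizontal axis, logarithmic) and replicate 2 (vertical axis, logarithmic) of protein-coding genes at a mean of 1 CPM or more in grey, with list members coloured, the solid line at equality and dotted lines at 2-fold. Photosynthesis and fruit wall genes lie along the diagonal, and 3 mucilage and 5 seed storage genes lie above the upper dotted line.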

How the data were processed

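mRNA of siliques was sequenced by the submitters from total RNA. The authors deposited estimated counts per gene and library, not scaled to depth or length. About 8.17% of the wild-type values in replicate 1 and 8.18% in replicate 2 are not whole. The submitters' processing notes name HISAT2, featureCounts, Bowtie and TAIR10. Their versions, settings and the use of strand are not stated there, so reads of overlapping genes and close copies cannot be separated. Genes overlapping another gene's span made up 80 of the 321 list genes, among them GL2, STK, SHP1, SHP2, ALC, CESA4, CESA7 and CESA8.

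From the 34262 rows, 32548 matched a locus tag of a RefSeq gene table (TAIR10.1), used for symbols, classes and gene spans. CPM used the total of all rows. Of 27444 protein-coding rows, 5 were left out: at a mean of 20 CPM or more their counts matched a structural RNA row within 1% in both libraries. The 22 lists, written from general knowledge, and the members were chosen with earlier results of these data known. Named genes were the 20 highest by CPM and per kb, and in each list the 4 highest and 2 lowest by mean CPM and all members past 2-fold at a mean of 1 CPM. The 10 largest ratios each way at a mean of 20 CPM were added. Other genes were named after their values were seen. No test was run: the 2 libraries are 1 group, called biological samples by the design text. Whether they came from separate plants is not stated, so whether their spread is technical or biological cannot be told. TMM factors came from edgeR 4.0.16 (R 4.3.3). Python 3.11.15, numpy 2.4.6, pandas 2.3.3 and matplotlib 3.10.9 did the rest, and the code that computes levels and ratios was first tested on simulated counts.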

Additional observations from a re-analysis of the deposited data

How the results depend on the processing

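No paired analysis was possible because the results come from no test and only 1 group was described. Over the alternatives run, 95 of the recomputed values stayed within 1.5 times (counts) or within 1 SD of the libraries (summed levels), and 14 moved. For summed levels, leaving out 1 of 2 libraries always stays within 1 SD, so those values cannot show stability. The seed storage list counted as unmoved although it summed to 16.6 CPM in replicate 1 and 78.7 CPM in replicate 2. Scaled to the total of protein-coding genes, summed CPM became 721 for seed coat regulators, 2919 for flavonoid genes, 438 for endosperm growth and signalling, 1069 for fruit wall patterning, 24489.8 for light-harvesting, 21452 for photosystems and electron transport, 571 for unloading, 351 for cell division, 486 for petal, stamen and tapetum genes and 5233 for widely expressed genes. This scaling leaves out structural RNA, whose share differed between the libraries. It raised the sum of every list, and whether a list counted as moved rested on its SD. Mucilage rose from 3470 to 3906 CPM and counted as unmoved, with an SD of 659. Genes past 2-fold and higher in replicate 1, 457 by library totals, were 279 with TMM and 299 with protein-coding totals. At a mean of 10 CPM or more, which leaves fewer genes, 73 were higher in replicate 1 and 109 in replicate 2. Leaving out either library gave between 19083 and 19302 genes at 1 CPM or more, against 18776 in both, and between 1458 and 1479 genes in the upper 50% of counts. At 0.5 CPM, 5 stomatal genes and 1 embryo sac gene counted as detected in both libraries, against 3 and 0 at 1 CPM. Keeping the rows that matched structural RNA, an alternative chosen after seeing the data, gave 18781 detected genes and 1416 genes in the upper 50% of counts. Ranking by coding length was not run, since the gene table used here gives gene spans and no coding lengths. Depth limits values under 0.1 CPM, which rest on 3 counts or fewer.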

Other observations

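Genes of cell division and of stomata, which belong to growing seeds and to the fruit surface, were described in the same libraries. All 12 cell division genes had 1 CPM or more in both libraries, against 68.4% of all protein-coding genes. The list summed to 314 and 315 CPM, which were nearly equal. KNOLLE, a syntaxin of the cell plate, stood at 64.4 and 86.3 CPM and was highest per kb at 51.0. MCM2 and MCM5, of the helicase that opens DNA for replication, stood at 60.0 and 43.9 CPM and 43.0 and 34.9 CPM, and HIK, a kinesin of the cell plate, at 42.4 and 41.0 CPM. The mitotic cyclin CYCB1;1 stood at 8.41 and 11.1 CPM, AUR2, an Aurora kinase, at 10.2 and 8.67 CPM, and CDKB1;1, a mitotic kinase, at 5.68 and 6.99 CPM. Of 7 stomatal genes, 3 had 1 CPM or more in both libraries (42.9%, against the same 68.4%). KAT1, a potassium channel of guard cells, stood at 21.7 and 14.6 CPM, FAMA, which completes guard cell fate, at 21.9 and 13.8 CPM, and EPF2, a peptide of the early lineage, at 3.75 and 4.48 CPM. The early factor SPCH stood at 0.717 and 0.593 CPM, EPF1, a later peptide, at 0.772 and 0.231 CPM, and MUTE, which ends the divisions, at 0.303 and 0 CPM. TOO MANY MOUTHS (TMM), the receptor-like protein that takes part in reading these peptides, stood at 1.52 and 0.890 CPM.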
